A study of Homo sapiens with 9 samples.

Results

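The genes described here are 42 genes that act in mitosis and at the kinetochore, taken by gene symbol from the 62700 genes of the deposited tables with no threshold on their measured values. The list was drawn up with earlier results of these data known. They fall into 10 roles, which are the spindle assembly checkpoint (5 genes), the mitotic kinases and chromosomal passenger complex (6), the mitotic cyclins with CDK1 (4), anaphase onset (3), spindle motors (5), centromere and kinetochore (7), spindle assembly (2), condensin and chromosome structure (6), cytokinesis (3) and the transcription factor FOXM1. RNA was sequenced in HAL-01, a B cell acute lymphoblastic leukemia line with the t(17;19) translocation that expresses the fusion transcription factor TCF3::HLF. All cells carried Cas9 with GFP and were collected on day 13 after a single guide RNA (sgRNA) was introduced. In the MEF2C-enhancer KO class the guide, sgRNA_96 or sgRNA_97, was directed at the TCF3::HLF-bound enhancer of MEF2C (3 libraries each, 6 in all), and in the control it was the scrambled guide SCR1 (3 libraries). The model is limited to 1 cell line and 1 time point, and neither the share of edited cells nor any removal of unedited cells was analysed here.

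Mitotic genes are transcribed in a wave late in the cell cycle. Cyclin B with CDK1 drives entry into mitosis, condensin compacts the chromosomes, and kinesin motors and the Aurora and Polo kinases build the spindle. The kinetochore, a protein layer on the centromere, captures spindle microtubules, and until every kinetochore is attached the checkpoint proteins keep CDC20 from activating the anaphase-promoting complex, whose activity then frees separase to cut cohesin. In fast-growing lymphoblasts such transcripts are abundant, and in bulk RNA a smaller share of cells in mitosis cannot be told apart from less of the transcript in each cell.

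Estimated counts totalled 15212462 to 29777361 per library, with SCR1 replicate 1 the deepest, and mitochondrial genes took 5.97 to 6.35% of counts in SCR1 and 6.22 to 7.01% in KO. All 7 B-lineage markers were at 1 TPM (an abundance corrected for transcript length and scaled to a total of 1000000) or more, and the defining T cell markers CD3D, CD3E and CD3G were at 0, as were all 4 erythroid markers. In the remaining lists the markers at 1 TPM or more were 1 of 6 for T and NK cells (NKG7), 2 of 5 for myeloid cells, 1 of 5 for fibroblast and stromal cells and 0 of 4 for epithelial cells. The summed TPM of the T and NK list was 20.2 to 22.1 in SCR1 and 15.3 to 19.1 in KO, and its part in the results below, like that of the mitochondrial share, was not tested. MEF2C itself, the gene whose enhancer was targeted, was at 559.5, 559 and 536 CPM (counts scaled to a library total of 1000000) in the SCR1 libraries, 495, 498 and 510.1 with sgRNA_96 and 553, 505 and 495 with sgRNA_97. Replicate 1 of sgRNA_97 overlapped the controls, and the log2 fold change of -0.12 (SE 0.04) was not past the threshold (adjusted p = 0.0620). The study, which used DESeq2, reported MEF2C among the genes down-regulated upon MEF2C-enhancer KO. It also reported lower MEF2C RNA by RT-qPCR and lower protein by Western blot when this enhancer site was disrupted. The labels do not say whether replicates were separate cultures, so every p-value below measures only the spread between these libraries.

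Mitotic transcripts were modestly lower upon MEF2C-enhancer KO. Of the 42 genes, all of which were expressed enough to be tested, 25 fell and 0 rose in KO against SCR1, where the threshold was an adjusted p of 0.05 from the quasi-likelihood test of edgeR over all 14436 genes tested. The share that fell was 59.5%, whereas over all genes tested 10.6% were called lower and 10.1% higher. The fitted log2 fold change was below 0 for 41 of the 42 genes, compared with 49.5% of all genes. The median over the 42 was -0.17 and over all genes tested 0.00. Individual values ran from -0.29 for CCNA2 to 0.07 for CENPE. The common biological coefficient of variation between libraries was 0.0724. For 23 of the 42 genes every KO library lay below every SCR1 library, which was the case for 10.2% of all genes, and 21 of these 23 were among the 25 called. The count of 25 was 16 without SCR1 replicate 4.

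Summed over the 42 genes, SCR1 libraries held 6963, 7213 and 7185 CPM and KO libraries 6290 to 6620 CPM, with means of 7120 ± 137 (SD, n = 3) and 6433 ± 129 (SD, n = 6). Every KO library was below every SCR1 library in this sum. The shift was spread over the KO libraries. Between 34 and 41 of the 42 genes lay below their SCR1 mean of log2 CPM in each of them. The median difference per KO library ran from -0.20 to -0.14 on the log2 scale. In SCR1 replicates 1, 3 and 4 the counts below that mean were 29, 17 and 18, with median differences of -0.02, 0.02 and 0.02. These SCR1 libraries set the mean themselves, so their differences are centred on 0 by construction. The same count over all genes was not made. Levels of single genes differed widely, from 12.7 TPM for CENPE and 13.2 for KIF18A to 279.7 for BUB3 and 293 for PTTG1 in SCR1.

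**Figure D1:**
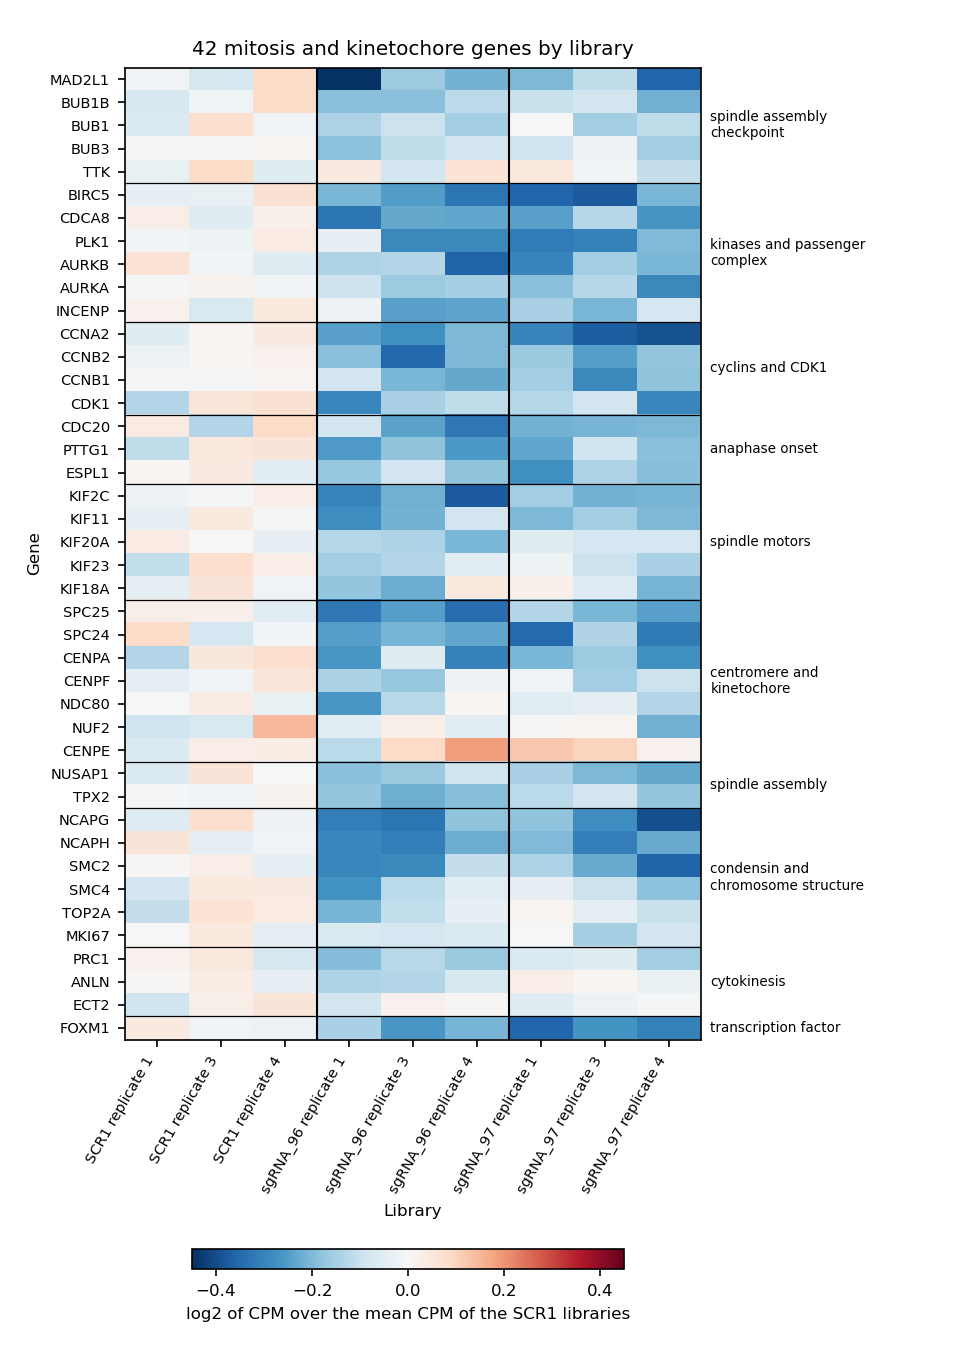
Heat map of the 42 genes (rows, grouped by role) in the 9 libraries (columns), where color gives log2 of the CPM over the mean CPM of the 3 SCR1 libraries, blue being lower and red higher. Blue fills most of the 6 KO columns, while CENPE, TTK, NUF2 and ECT2 mostly stay pale or turn red. Counted from the SCR1 mean of log2 CPM, 34 to 41 genes were lower in each KO library. In SCR1 replicates 1, 3 and 4, which set that mean, 29, 17 and 18 genes were below it.

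The promoters of these genes share sequence elements that the choice of members did not use. The cell cycle genes homology region (CHR), with core letters TTTGAA, is the textbook binding site of the DREAM and MYB-MuvB complexes, and CCAAT is the box bound by NF-Y. Both were searched on both strands from 250 bases before to 50 bases after each RefSeq gene start (GRCh38.p14), a table with entries for 36 of the 42 genes and without AURKA, BIRC5, BUB3, FOXM1, TPX2 and TTK. TTTGAA was present for 26 of the 36 genes (72.2%), compared with 18.2% of all 27305 genes in the table and 13.4% of the tested genes among them. The same hexamer read along the gene within the last 100 bases before the start was present for 16 (44.4%), compared with 3.29% of all and 2.37% of tested genes. CCAAT was present for 27 (75.0%), compared with 39.7% and 43.6%, and both motifs for 19 (52.8%), compared with 7.26% and 5.58%. These are matches of letters and not measured binding sites.

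The promoters shown are 7 that hold both motifs close to the start, 4 from genes that fell (CCNB2, PLK1, CDC20, CDCA8) and 3 from genes that were not called (KIF23, PRC1, MKI67). Each is the stretch of 130 bases that ends at the base before the RefSeq start, written 5′ to 3′ along the gene. Capitals mark the CHR hexamer and the NF-Y box, the latter as ATTGG where it lies on the other strand.
CCNB2 (chr15:59105016-59105145, plus strand): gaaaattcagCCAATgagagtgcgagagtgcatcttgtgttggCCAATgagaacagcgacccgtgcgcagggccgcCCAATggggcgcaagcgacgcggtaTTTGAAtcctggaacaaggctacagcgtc
PLK1 (chr16:23678759-23678888, plus strand): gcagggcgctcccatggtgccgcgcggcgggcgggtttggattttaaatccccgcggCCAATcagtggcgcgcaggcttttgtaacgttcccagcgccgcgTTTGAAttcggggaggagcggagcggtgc
CDC20 (chr1:43358851-43358980, plus strand): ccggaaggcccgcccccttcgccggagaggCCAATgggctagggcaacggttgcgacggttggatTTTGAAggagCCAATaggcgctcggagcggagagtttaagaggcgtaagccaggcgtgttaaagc
CDCA8 (chr1:37692386-37692515, plus strand): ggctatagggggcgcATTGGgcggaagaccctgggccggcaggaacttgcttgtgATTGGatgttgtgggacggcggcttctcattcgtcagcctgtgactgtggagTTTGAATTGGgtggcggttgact
KIF23 (chr15:69414219-69414348, plus strand): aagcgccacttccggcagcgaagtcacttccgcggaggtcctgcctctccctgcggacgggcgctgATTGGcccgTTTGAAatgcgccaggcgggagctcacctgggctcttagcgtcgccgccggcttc
PRC1 (chr15:90994536-90994665, minus strand): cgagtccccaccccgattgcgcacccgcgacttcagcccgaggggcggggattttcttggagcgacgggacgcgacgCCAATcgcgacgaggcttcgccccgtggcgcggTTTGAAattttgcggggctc
MKI67 (chr10:128126424-128126553, minus strand): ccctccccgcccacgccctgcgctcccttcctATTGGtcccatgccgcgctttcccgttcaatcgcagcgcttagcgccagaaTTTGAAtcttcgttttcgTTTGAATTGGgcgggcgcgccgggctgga
CCNB2 carries CCAAT boxes in a row ahead of a single TTTGAA, and in CDCA8 and MKI67 the hexamer runs into a reversed box. Among the 21 called genes with an entry, 14 held TTTGAA, 17 held CCAAT and 11 held both, and among the 15 genes not called the counts were 12, 10 and 8.

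**Figure D2:**
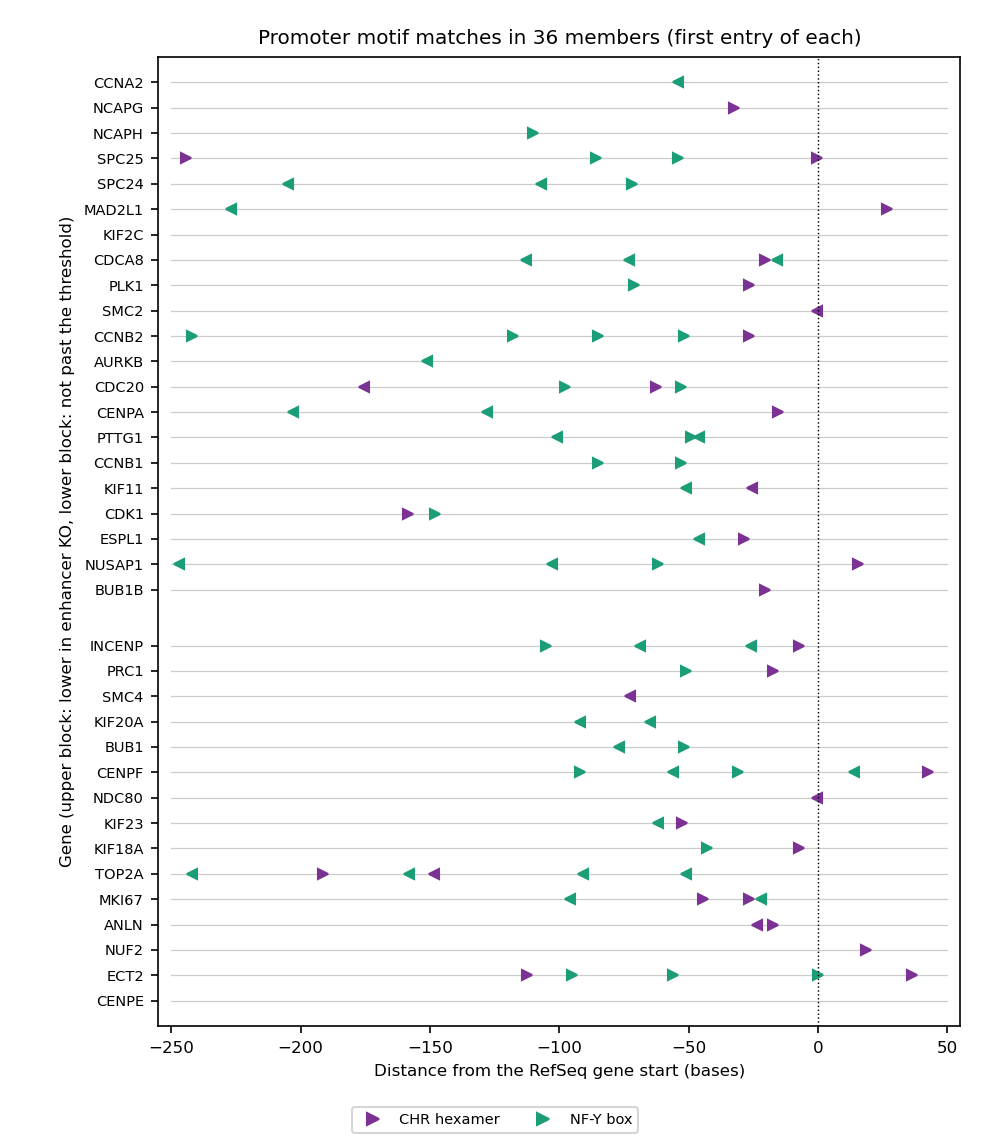
Positions of the CHR hexamer (purple) and the NF-Y box (green) in the first promoter entry of 36 genes, in bases from the RefSeq gene start, where arrows to the right read along the gene and arrows to the left against it. Genes that fell in KO form the upper block and genes not called the lower block, and in both blocks the matches crowd into the last 100 bases before the start.

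The mitotic cyclins and CDK1 fell as a whole, with 4 of 4 genes called and a median log2 fold change of -0.21. CCNA2 (chr4:121816444-121823883, minus strand, hg38), which encodes cyclin A2 and had the lowest adjusted p of all 42 genes, was at 156, 163 and 166 CPM in SCR1 and at 123 to 140.5 CPM (median 132) in KO. The groups did not overlap, and the log2 fold change was -0.29 (SE 0.05, 95% interval -0.40 to -0.19, adjusted p = 0.000500), or 18.5% less. Its counts are uncertain where its gene model overlaps EXOSC9 on the opposite strand. For CCNB1, cyclin B1, the SCR1 values were 129, 129 and 131 CPM and the KO values 106 to 122 CPM (median 113). The control libraries of CCNB1 sat within 2 CPM of each other and above all KO libraries (log2 fold change -0.19, SE 0.05, adjusted p = 0.00911). CCNB2, whose promoter is printed above, gave 116, 118 and 119 CPM in SCR1 and 92.3 to 105 CPM (median 103) in KO. Again no KO library reached the controls (log2 fold change -0.22, SE 0.05, adjusted p = 0.00369). CDK1, the kinase that these cyclins activate, was at 167, 189.6 and 192 CPM in SCR1 and 149 to 173 CPM (median 166) in KO. Here SCR1 replicate 1 lay inside the KO range, 3 of 6 KO libraries were below all controls, and the call was close to the threshold (log2 fold change -0.17, SE 0.06, adjusted p = 0.0457). It was lost without SCR1 replicate 3 (adjusted p 0.151), SCR1 replicate 4 (0.212), sgRNA_96 replicate 1 (0.0623), sgRNA_96 replicate 3 (0.0665) or sgRNA_97 replicate 4 (0.0837), whereas the 3 cyclins kept their calls whichever library was left out. CCNB1 was, however, not called under the corrections for transcript length or in the tests on TPM described below. CCNB2 was not called in the unfiltered test on TPM.

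FOXM1, the transcription factor that activates many mitotic promoters late in the cycle, was at 180.4, 174 and 172 CPM in SCR1 and 137 to 159 CPM (median 146) in KO. All 6 KO libraries were below all controls, and the log2 fold change was -0.26 (SE 0.05, 95% interval -0.36 to -0.16, adjusted p = 0.00131), or 16.3% less. FOXM1 shares genomic sequence with RHNO1 and ITFG2 on the opposite strand, which together had 51.0% as many counts, and whether the counting used strand is not given in the sources used here.

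Among the mitotic kinases and the chromosomal passenger complex 5 of 6 genes fell, with a median log2 fold change of -0.22. The passenger complex joins Aurora B (AURKB) with survivin (BIRC5), borealin (CDCA8) and the scaffold INCENP, and corrects faulty attachments at the centromere. BIRC5 (chr17:78214186-78225636, plus strand) was at 161, 161 and 173 CPM in SCR1 and 127 to 143 CPM (median 135) in KO. The ranges stood well apart (log2 fold change -0.29, SE 0.05, adjusted p = 0.000808), and BIRC5 was the second lowest of the 42 fold changes. CDCA8 gave 115, 108 and 114 CPM in the controls and 89.8 to 103 CPM (median 95.2) in KO, without overlap (log2 fold change -0.24, SE 0.05, adjusted p = 0.00238). AURKB was at 127, 120.1 and 117 CPM in SCR1 and 94.5 to 111 CPM (median 107) in KO. All KO libraries of AURKB were below all controls (log2 fold change -0.21, SE 0.05, adjusted p = 0.0119), although the call was lost without SCR1 replicate 1 (adjusted p 0.0908). INCENP, at -0.16 on the log2 scale with an adjusted p of 0.0511, was just outside the threshold, and 5 of 6 KO libraries were below all controls. It passed without SCR1 replicate 3 (0.0477), sgRNA_96 replicate 1 (0.0130) or sgRNA_97 replicate 4 (0.0446).

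PLK1, the Polo kinase of centrosome maturation and spindle assembly, was at 112, 111 and 115 CPM in SCR1 and 90.5 to 109.8 CPM (median 92.0) in KO. In 5 of the 6 KO libraries PLK1 was at or under 98.1 CPM, and sgRNA_96 replicate 1 came close to the controls without reaching them (log2 fold change -0.24, SE 0.06, adjusted p = 0.00868). Without SCR1 replicate 4 the adjusted p of PLK1 was 0.0536. AURKA, the Aurora kinase of the spindle poles, had a log2 fold change of -0.17 (adjusted p = 0.0308) with no overlap between groups. The call of AURKA held in 4 of the 9 leave-one-out fits and was lost without SCR1 replicate 1 (0.0966), replicate 3 (0.0849) or replicate 4 (0.0842), sgRNA_96 replicate 3 (0.0538) or sgRNA_97 replicate 4 (0.0542).

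**Figure D3:**
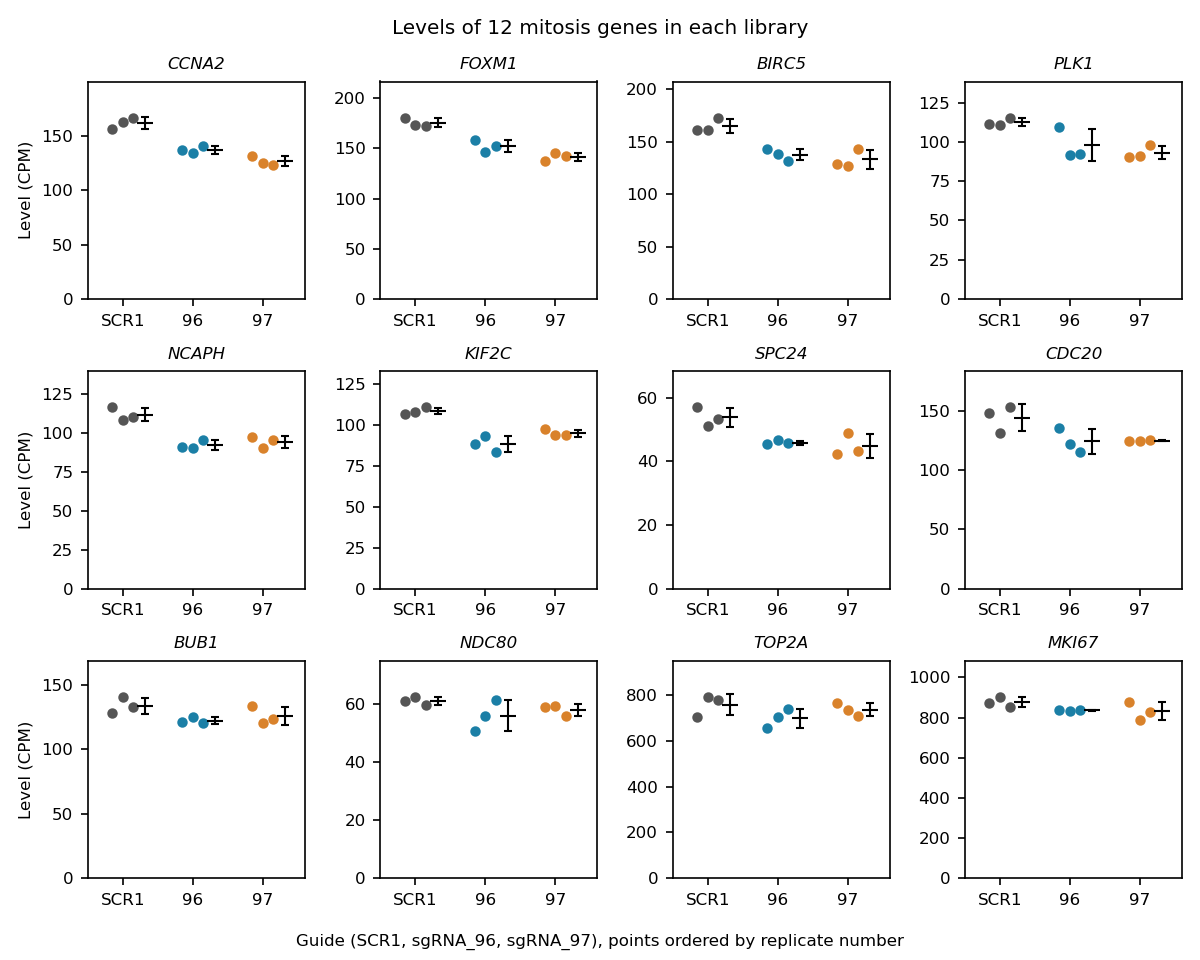
CPM of 12 genes in every library (points, vertical axes from 0), by guide, with mean and SD of each guide beside the points. In the upper row and for NCAPH, KIF2C and SPC24 all KO points lie below all SCR1 points, whereas for CDC20, BUB1, NDC80, TOP2A and MKI67 they overlap.

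The genes of anaphase onset fell in 3 of 3 cases, with a median log2 fold change of -0.20. CDC20, which activates the anaphase-promoting complex, was at 148, 131 and 153 CPM in SCR1 and 115 to 136 CPM (median 125) in KO. The groups overlapped at 1 KO library, sgRNA_96 replicate 1, which was above SCR1 replicate 3 (log2 fold change -0.21, SE 0.06, adjusted p = 0.0129). Securin (PTTG1), the inhibitor of separase, had a log2 fold change of -0.20 (adjusted p = 0.0130), and separase itself (ESPL1) of -0.17 (adjusted p = 0.0162). None of these 3 calls held in every leave-one-out fit. CDC20 was lost without SCR1 replicate 1 (0.0740) or replicate 4 (0.0994), PTTG1 without SCR1 replicate 3 (0.0575) or replicate 4 (0.0842), and ESPL1 without SCR1 replicate 1 (0.0727) or replicate 3 (0.0675).

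Of the spindle assembly checkpoint genes 2 of 5 fell, with a median of -0.11. The called genes were MAD2L1, which encodes the MAD2 protein that holds CDC20 inactive (log2 fold change -0.24, SE 0.06, adjusted p = 0.0137), and BUB1B, which encodes its partner BUBR1 (-0.15, SE 0.05, adjusted p = 0.0369). The most counted MAD2L1 transcript, with 54.6% of the counts of the gene, is annotated for nonsense-mediated decay and not as protein-coding. MAD2L1 was lost without SCR1 replicate 4 (0.0887), and BUB1B without SCR1 replicate 3 (0.0660) or replicate 4 (0.231), sgRNA_96 replicate 3 (0.0753) or sgRNA_97 replicate 4 (0.0661). BUB1, the kinase that recruits them to the kinetochore, was at 128, 141 and 133 CPM in SCR1 and 120.3 to 134 CPM (median 123) in KO. For BUB1, 5 of the 6 KO libraries were below all controls and sgRNA_97 replicate 1 was not (log2 fold change -0.11, SE 0.05, adjusted p = 0.119). BUB3 had a log2 fold change of -0.11 with groups that did not overlap and an adjusted p of 0.0772, which became 0.0470 without sgRNA_97 replicate 3. BUB3 was called with DESeq2, and under the corrections for GC trend and effective length and the tests on TPM described below. With other size factors, no filter, a replicate block or the length trend correction BUB3 was not called. TTK, the kinase MPS1 at the top of the checkpoint, stood at -0.01 (95% interval -0.13 to 0.11), with KO libraries among the controls, and its sign changed with the processing.

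In the centromere and kinetochore group 3 of 7 genes fell, with a median of -0.10. The outer kinetochore holds microtubules through the NDC80 complex, which is built of NDC80, NUF2, SPC24 and SPC25. The 2 subunits of its inner end fell. SPC24 was at 57.0, 51.0 and 53.4 CPM in SCR1 and 42.2 to 49.0 CPM (median 45.5) in KO, without overlap (log2 fold change -0.25, SE 0.06, adjusted p = 0.00659). SPC25 had nearly the same fold change (-0.25, SE 0.06, adjusted p = 0.0115) and no overlap. Both calls were lost without SCR1 replicate 1 (adjusted p 0.0644 for SPC24 and 0.0627 for SPC25). The 2 subunits that bind the microtubule were not called. NDC80 was at 61.0, 62.5 and 59.6 CPM in SCR1 and 50.8 to 61.3 CPM (median 57.4) in KO. Only sgRNA_96 replicate 4 reached the control range of NDC80, and its log2 fold change was -0.10 (95% interval -0.22 to 0.02, adjusted p = 0.257). NUF2 was at -0.04 (95% interval -0.18 to 0.09, adjusted p = 0.692). The intervals of the 4 subunits overlap, and a difference in response between subunits was not tested.

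CENPA, the histone variant that marks the centromere, was called narrowly (log2 fold change -0.20, SE 0.07, adjusted p = 0.0492), with sgRNA_96 replicate 3 inside the control range. With 1 library left out its call held without sgRNA_96 replicate 3 or SCR1 replicate 1, and the adjusted p reached 0.210 without SCR1 replicate 4, 0.139 without SCR1 replicate 3 and 0.0636 to 0.0875 without any of sgRNA_96 replicates 1 and 4 and the 3 sgRNA_97 libraries. CENPA also overlaps SLC35F6 on the same strand, a gene with 68.4% as many counts. CENPF, a large coat protein of the kinetochore, was at -0.10 (adjusted p = 0.133). CENPE, the kinetochore motor that carries chromosomes to the spindle equator, had the only fitted value above 0 (0.07, 95% interval -0.05 to 0.20, adjusted p = 0.431), with 4 of 6 KO libraries above all controls and 1 below.

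The spindle motors fell in 2 of 5 cases, with a median of -0.11. KIF11, the kinesin that pushes spindle poles apart, was at 181, 192 and 186 CPM in SCR1 and 154 to 176 CPM (median 162) in KO. Every KO library was below every control (log2 fold change -0.19, SE 0.05, adjusted p = 0.00933). KIF2C, a kinesin that takes microtubules apart at the centromere, gave 107, 108 and 111 CPM in SCR1 and 83.5 to 97.2 CPM (median 93.3) in KO, also without overlap (log2 fold change -0.24, SE 0.05, adjusted p = 0.00274). The motors of the central spindle, KIF20A (-0.11, adjusted p = 0.109) and KIF23 (-0.10, adjusted p = 0.204), and KIF18A, which limits chromosome movement (-0.09, adjusted p = 0.384), were not called. KIF20A lies across from CDC23 and BRD8, genes with more counts than its own, on the opposite strand. Both spindle assembly factors fell. TPX2, which activates Aurora A on microtubules, had a log2 fold change of -0.16 (adjusted p = 0.0104), lost without SCR1 replicate 4 (0.0545). NUSAP1, which bundles spindle microtubules, was at 353, 384 and 369 CPM in SCR1 and 314 to 346 CPM (median 326) in KO. The groups did not overlap (log2 fold change -0.17, SE 0.04, adjusted p = 0.00995), the call was lost without SCR1 replicate 3 (0.0560), and same-strand gene models that overlap NUSAP1 held 96.4% as many counts.

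Condensin and chromosome structure genes divided evenly, with 3 of 6 called and a median of -0.18. Condensin I, the ring that compacts mitotic chromosomes, is built of SMC2 and SMC4 with NCAPG, NCAPH and a further subunit. NCAPH was at 116, 108 and 110.5 CPM in SCR1 and 90.0 to 97.4 CPM (median 93.3) in KO, well separated (log2 fold change -0.26, SE 0.05, adjusted p = 0.000849). NCAPG gave 138, 152 and 142 CPM in SCR1 and 109 to 127 CPM (median 117) in KO (log2 fold change -0.28, SE 0.05, adjusted p = 0.00156). SMC2 was at 145, 147 and 141 CPM and at 113 to 134 CPM (median 121), respectively (log2 fold change -0.23, SE 0.05, adjusted p = 0.00615). In none of these 3 genes did a KO library reach the controls. SMC4, the partner of SMC2, had a log2 fold change of -0.12 (adjusted p = 0.105), with overlap, and its gene model faces IFT80 and TRIM59 on the opposite strand.

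TOP2A, the topoisomerase that untangles sister chromatids, was at 706, 794 and 779.6 CPM in SCR1 and 657 to 765 CPM (median 723) in KO. The ranges largely coincided, with 2 of 6 KO libraries below all controls (log2 fold change -0.08, 95% interval -0.18 to 0.03, adjusted p = 0.281). MKI67, which encodes Ki-67, a coat of mitotic chromosomes and the usual marker of cycling cells, was at 875, 903 and 852 CPM in SCR1 and 790.1 to 878 CPM (median 835) in KO. For MKI67, 5 of the 6 KO libraries were below all controls, yet the difference was small (log2 fold change -0.07, 95% interval -0.15 to 0.01, adjusted p = 0.208). Of the cytokinesis genes 0 of 3 were called. PRC1, which bundles the central spindle, was at -0.13 (adjusted p = 0.0625, or 0.0483 without sgRNA_97 replicate 1) and overlaps a same-strand gene model with 37.2% as many counts. The scaffold anillin (ANLN) was at -0.05 (95% interval -0.16 to 0.05) and ECT2, the activator of RhoA at the furrow, at -0.02 (95% interval -0.13 to 0.08).

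**Figure D4:**
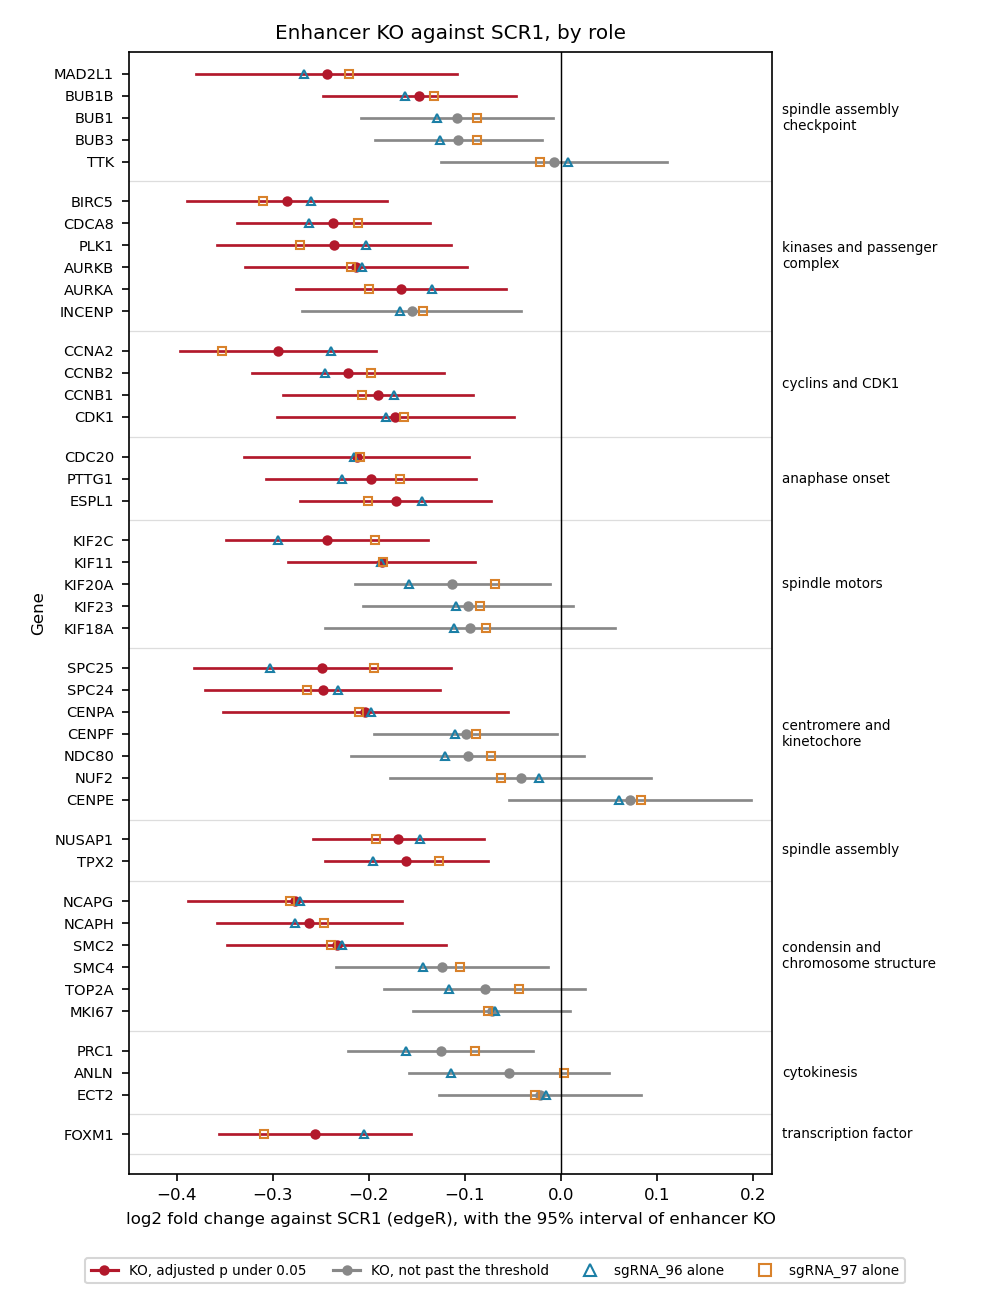
Log2 fold change of each gene in KO against SCR1 (circles with 95% intervals, red where the adjusted p was under 0.05) and with sgRNA_96 (triangles) or sgRNA_97 (squares) alone, grouped by role. The 25 red genes all lie left of 0, CENPE is the only circle right of 0, and the values of both guides lie close together for most genes.

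Each guide taken alone gave the same direction with fewer calls. The guides share the SCR1 libraries, so their results are not independent, and the calls come from a single fit with 3 groups. With sgRNA_96, 15 of the 42 genes fell and 0 rose (over all genes tested 5.41% were lower and 5.78% higher), and for 28 genes no sgRNA_96 library reached the controls (14.6% of all genes). With sgRNA_97, 18 fell and 0 rose (7.76% lower and 7.35% higher over all genes), and for 27 genes no library reached the controls (17.3% of all genes). The median log2 fold change was -0.17 with sgRNA_96 and -0.18 with sgRNA_97. The count for sgRNA_96 was 7 without its own replicate 3 or SCR1 replicate 4 and 9 without SCR1 replicate 1. That for sgRNA_97 was 6 without SCR1 replicate 1 or 4, 7 without its own replicate 3 or 4, and 10 without its own replicate 1 or SCR1 replicate 3. Over all genes fewer were called lower too. For sgRNA_96 the number was 781 with every library and 314, 393 and 320 in these fits, in the order given. For sgRNA_97 it was 1120 with every library, then 451 and 603, 486 and 888, and 799 and 949. The fits tested 14436 genes with every library and 14688 to 14765 with 1 left out.

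Both guides called the same 11 genes lower, compared with 4.26% of all genes: CCNA2, BIRC5, NCAPH, FOXM1, NCAPG, CDCA8, KIF2C, CCNB2, SMC2, SPC24 and KIF11. Another 4 were called with sgRNA_96 (TPX2, SPC25, PTTG1 and MAD2L1) and 7 with sgRNA_97 (PLK1, CCNB1, NUSAP1, AURKB, CDC20, ESPL1 and AURKA), while 20 were called with neither, among them 3 (BUB1B, CDK1 and CENPA) that passed with the guides pooled. The largest fall with a single guide was that of CCNA2 with sgRNA_97, where libraries stood at 131, 125 and 123 CPM and the log2 fold change was -0.35 (adjusted p = 0.000447). With sgRNA_96 CCNA2 stood at 137, 134 and 140.5 CPM, with a log2 fold change of -0.24 (adjusted p = 0.00751). No library of either guide reached the controls for CCNA2, and all 3 sgRNA_97 libraries were below those of sgRNA_96. For sgRNA_96 the lowest fold change was that of SPC25, at 25.6, 26.9 and 25.2 CPM against 32.6, 32.4 and 30.9 CPM in SCR1 (log2 fold change -0.30, adjusted p = 0.0143), while with sgRNA_97 SPC25 was at 29.2, 27.7 and 27.0 CPM (-0.19, adjusted p = 0.0823). FOXM1 was at 159, 146 and 152 CPM with sgRNA_96 (-0.20, adjusted p = 0.0178) and 137, 145 and 142 CPM with sgRNA_97 (-0.31, adjusted p = 0.00114). The sgRNA_97 libraries of FOXM1 were all below those of sgRNA_96 as well, at a log2 difference of -0.10 (unadjusted p = 0.0616).

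That a gene passed with 1 guide and not with the other does not show that the guides differ. Tested directly, 0 of the 42 genes differed between sgRNA_97 and sgRNA_96 in edgeR (0.0208% of all genes did, in either direction), and 0 in DESeq2. At an unadjusted p under 0.05 there were 2 of the 42, ANLN, with a log2 difference of 0.12 (sgRNA_97 over sgRNA_96, 95% interval 0.01 to 0.23, unadjusted p = 0.0393), and CCNA2, with -0.11 (95% interval -0.224 to -0.00252, unadjusted p = 0.0456), and over all genes 503. Differences over the 42 genes ran from -0.11 to 0.12.

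The genes that fell and those that did not are described here, without a test, by the make-up of their transcripts. The most counted transcript of the 25 called genes had a median length of 2290 nt and a median GC content of 46.4%, and that of the 17 others 3762 nt and 39.8%. When each library was corrected for its trend of counts on GC content, 34 of the 42 genes fell, 24 of them among the 25, beside 13.1% of all genes tested. When it was corrected for the trend on transcript length, 23 fell, 18 of them among the 25, beside 9.43% of all genes. Under both corrections, which were added after the data had been seen, the fitted value was below 0 for all 42 genes, CENPE included. With the length trend, TTK (-1.3e-05) and NUF2 (-0.0037) were below 0 only in sign. Correcting counts for the average effective transcript length of each gene in each library gave 10 calls, 9 of them among the 25, beside 5.17% of all genes. Those 9 were BIRC5, CDCA8, CCNB2, CCNA2, CDC20, TPX2, NCAPH, SMC2 and FOXM1. With limma on log2 TPM values there were 7 calls under either pseudocount, 6 of them among the 25, beside 4.36% and 4.3% of all genes, and without a filter there were 6, 5 of them among the 25, beside 1.14%. Of the 25, only BIRC5, CDCA8, CCNA2, NCAPH, CDC20 and CCNB2 passed on TPM, CCNB2 only with the filter. In these fits 38 of the 42 fitted values stayed below 0. Leaving out a single library gave 16 calls (without SCR1 replicate 4, beside 6.12% of all genes) to 25, and over all genes the share called lower ran from 4.93% (without SCR1 replicate 1, where 19 of the 42 were called) to 12.5%. BIRC5, CDCA8, CCNA2 and NCAPH were called under every alternative run, and 11 genes in every leave-one-out fit. How many of all genes kept their calls in this way was not counted.

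Of 129 other genes of mitosis in 7 lists, 52 fell (40.3%) and 3 rose (2.33%), with a median log2 fold change of -0.14. Over all genes tested 10.6% were called lower and 10.1% higher, which are the shares to set beside every list below. Among the other kinetochore and centromere genes 19 of 34 fell and 0 rose (median -0.19). The lowest were CENPM (-0.51, adjusted p = 6.71e-05) and CENPW (-0.37, 0.00254), of the inner kinetochore, and PMF1 (-0.40, 0.00171), of the MIS12 complex that carries the NDC80 complex. The other regulators of mitotic entry fell in 8 of 13 cases with 0 higher (median -0.18), led by PKMYT1 (-0.51, adjusted p = 0.000187), a kinase that inhibits CDK1, CDC25A (-0.37, 6.34e-05), a phosphatase that activates it, and CKS1B (-0.28, 0.000917), a CDK-binding subunit. The second kinase that inhibits CDK1 in this list, WEE1 (-0.03, adjusted p = 0.646), and the related phosphatases CDC25B (-0.08, 0.331) and CDC25C (-0.18, 0.158) were not called.

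Spindle and centrosome genes outside the 42 fell in 8 of 26 cases with 0 higher (median -0.12), the lowest being HAUS8 (-0.39, adjusted p = 0.00238), KIFC1 (-0.32, 0.000159) and KIF22 (-0.26, 0.000783). Of the anaphase-promoting complex list 5 of 18 fell and 1 rose (median -0.08). Those named by size were ANAPC15 (-0.36, adjusted p = 0.00390), UBE2S (-0.31, 0.00641), a ubiquitin-conjugating enzyme of the complex, and its inhibitor FBXO5 (-0.26, 0.00147). Condensin and cohesin genes outside the 42 fell in 6 of 16 cases and rose in 1 (median -0.08), with CDCA5, which encodes sororin and protects cohesion (-0.42, adjusted p = 2.68e-05), NCAPH2 (-0.36, 0.00194), of condensin II, and ESCO2 (-0.33, 0.00216), the cohesin acetyltransferase, lowest. Other cytokinesis genes fell in 2 of 8 cases, SHCBP1 (-0.31, adjusted p = 0.000289) and CHMP4B (-0.18, 0.0159).

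The list of DREAM and MYB-MuvB genes takes in the repressors E2F7 and E2F8 beside subunits of these complexes, which bind the CHR element printed above. Of its 14 genes 4 fell and 1 rose (median -0.15). MYBL2, which encodes B-MYB, the activating subunit, averaged 376 ± 29.3 CPM in the 3 SCR1 libraries and 265 ± 19.9 CPM (mean ± SD) in the 6 KO libraries, without overlap (log2 fold change -0.51, adjusted p = 3.30e-05). That fall was deeper than that of any of the 42 genes. The repressors E2F7 (-0.33, adjusted p = 0.00237) and E2F8 (-0.24, 0.0142) fell as well. For comparison, 19 of 20 genes of replication licensing and the replication fork, which act in the preceding phase of the cycle, fell and 1 rose, with a median of -0.34. The lowest were GINS2 (-0.50, adjusted p = 1.82e-06), of the replicative helicase, and the licensing factors CDC6 (-0.49, 1.04e-05) and CDT1 (-0.44, 0.00115). The genes of all these lists that rose, named here after their values were seen, were the cohesin loader NIPBL (0.16, adjusted p = 0.0422), ANAPC5 (0.17, 0.0154), the DREAM pocket protein RBL2 (0.15, 0.0422) and, of the replication list, the polymerase subunit POLE (0.13, 0.0417). The difference in median between the replication list and the 42 mitosis genes was not tested.

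**Figure D5:**
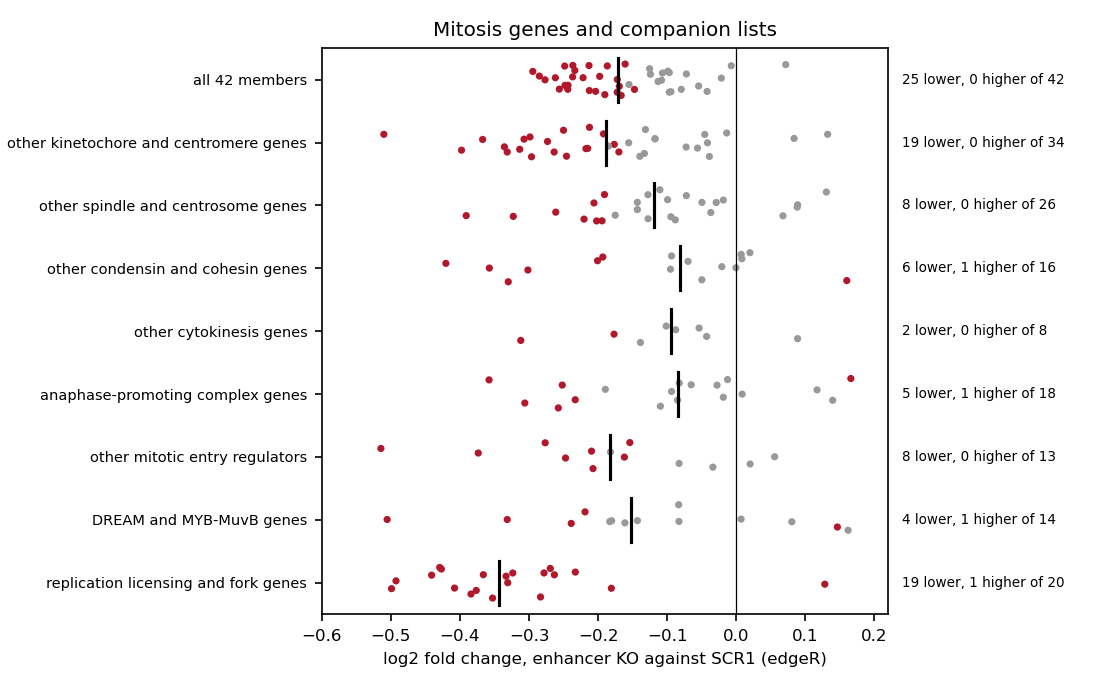
Log2 fold change in KO against SCR1 of the 42 genes (top), the 7 lists of other mitosis genes and the replication list (bottom), with 1 point per gene, red where the adjusted p was under 0.05, and a bar at each median. Medians run from -0.08 to -0.19 for the mitosis lists and stand at -0.34 for the replication list, with the counts called printed at the right.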

How the data were processed

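RNA-seq libraries (TruSeq, poly(A) selection) were made from 9 HAL-01 samples, grouped by their titles into sgRNA_96, sgRNA_97 and SCR1 with 3 replicates each. After trimming with TrimGalore, the authors used STAR (GRCh38) for alignment and Salmon 1.10.1 for transcript quantification. The deposited values are estimated counts for each transcript, not normalized, and TPM, which Salmon corrects for effective length and scales to a total of 1000000. Of the deposited estimated counts above 0, 87.6% were not whole numbers (tolerance 0.001). All 252835 transcript identifiers matched GENCODE release 44, from which gene coordinates were taken. Salmon divides reads shared by several transcripts, so genes with overlapping models carry uncertain counts, and antisense overlaps too, since the use of strand was not given in the sources used here.

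For each gene, estimated counts of its transcripts were added up and rounded to whole numbers, genes were kept with filterByExpr (minimum count 10, which left 14436), libraries were scaled by TMM, and edgeR 4.0.16 (R 4.3.3) gave quasi-likelihood tests with Benjamini-Hochberg adjustment at 0.05. Adjusted p-values are those of edgeR throughout, unless a different tool is given. KO (6 libraries) against SCR1 was a fit of its own, and the guides were compared in a fit with 3 groups. The scripts were tested on simulated data. Totals ran from 15212462 to 29777361 counts, and the part of sequencing depth in the spread between libraries was not tested. Alternatives were DESeq2 1.42.0 (the study's tool), its size factors in edgeR, no filter, a replicate block, a gene length offset, limma 3.58.1 on log2(TPM + 1) and log2(TPM + 0.1), and leaving out each library. Trend offsets for GC content and length were added after seeing the data.

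The members, their roles and the companion and marker lists were chosen with earlier results of these data known. SCR1 values per library, with the range and median of the KO libraries, are given for the 14 called members with the smallest adjusted p and for BUB1, AURKB, PLK1, CDK1, CCNB1, CDC20, KIF11, NDC80, TOP2A, MKI67 and FOXM1. For CCNA2 and FOXM1 the libraries of each guide are given as well. Of each companion list up to 3 called genes with the largest change are named. SPC25 was given per library for the guides because of its value, chosen after it was seen. Promoter sequences are from RefSeq (GRCh38.p14).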

Additional observations from a re-analysis of the deposited data

Results flagged for a closer look

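In 65 checks of whether a single library stood apart from the other 5 of the MEF2C-enhancer KO class (42 mitosis genes and 23 further genes named in the text), 3 did, where chance alone gives about 1 in 20, or 3.25. BUB1 was at 134.02 CPM in sgRNA_97 replicate 1, above the other KO libraries (120 to 125 CPM), with a gap of 0.644 of the whole range. NUF2 was at 49.77 CPM in sgRNA_97 replicate 4, below the others (55.7 to 58.9 CPM), with a gap of 0.656. CDC6, of the replication list, was at 66.05 CPM in sgRNA_97 replicate 1, above the others (56.7 to 58.8 CPM), with a gap of 0.776. Leaving out sgRNA_97 replicate 1 did not bring BUB1 past the threshold, nor did leaving out replicate 4 bring NUF2 past it (edgeR, adjusted p at least 0.0525 for BUB1 and 0.488 for NUF2 in the leave-one-out fits).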

How the results depend on the processing

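The median log2 fold change of the 42 genes in KO against SCR1 stayed below 0 under every alternative, and 25 of the 25 called genes and 37 of all 42 had a fitted value below 0 in every one, but the number of calls depended on the processing. Against 25 calls, DESeq2 gave 28, other size factors 25, no filter 26, the GC trend offset 34, the length trend offset 23, the gene length offset 10, log2(TPM + 1) 7, log2(TPM + 0.1) 7 and log2(TPM + 1) without a filter 6, and leaving out 1 library gave 16 to 25. The genes that DESeq2 added to the 25 were BUB3, INCENP and PRC1. Against 15 for sgRNA_96 the GC trend offset gave 31, the gene length offset 4 and the tests on TPM 2, 2 and 1, with 7 to 15 on leaving out 1 library. Against 18 for sgRNA_97 these gave 24, 4, and 4, 4 and 2, with 6 to 19. Over all genes, against 781 called lower for sgRNA_96, they gave 1282, 255, and 182, 179 and 73, with 314 to 992 on leaving out 1 library. Against 1120 for sgRNA_97 they gave 1485, 411, and 346, 345 and 139, with 451 to 1280. For the 129 other mitosis genes, against 52, the GC trend offset gave 82, the gene length offset 32 and the tests on TPM 28, 28 and 17, with 40 to 52 on leaving out 1 library. For the 20 replication genes, against 19, the unfiltered log2(TPM + 1) test gave 10. Over all genes, against 10.6% called lower in KO, DESeq2 gave 11.3%, other size factors 10.5% and no filter 6.56%. The GC trend offset gave 13.1%, the length trend offset 9.43% and the gene length offset 5.17%. The tests on TPM gave 4.36%, 4.3% and 1.14%, and leaving out 1 library gave 4.93% to 12.5%. The cause of these differences was not tested.

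The fitted sign of 5 genes that were not called changed. With the gene length offset, log2(TPM + 1), log2(TPM + 0.1) and log2(TPM + 1) without a filter, TTK stood at 0.0295, 0.0307, 0.0318 and 0.0307, SMC4 at 0.0382, 0.0411, 0.0415 and 0.0411, and ECT2 at 0.0769, 0.0767, 0.0797 and 0.0767. CENPE was at -0.0227 with the GC and -0.0156 with the length trend offset. On leaving out 1 library TTK ran from -0.0331 (without SCR1 replicate 4) to 0.0307 (without SCR1 replicate 3), NUF2 from -0.0900 (without SCR1 replicate 1) to 0.0355 (without SCR1 replicate 4) and ECT2 from -0.0685 to 0.00854 (without the same libraries). TTK was also above 0 without sgRNA_96 replicate 3 or sgRNA_97 replicate 4. With the gene length offset NCAPH fell further, to -0.43.

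The labels do not say whether libraries with the same replicate number (1, 3 or 4) belong together. Deviations of same-numbered libraries from their group means correlated at -0.07 to 0.06 in 9 pairs. In 18 pairs with different numbers the correlations were -0.07 to 0.09, and 1 of 9 libraries correlated best with its own number. With a replicate block, 26 of the 42 genes were called in KO, 13 with sgRNA_96 and 17 with sgRNA_97. Over all 14436 genes tested, 1519, 760 and 1080 were called lower in these 3 comparisons.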
